A study of Mus musculus with 8 samples.

Results

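The Zfp genes encode mouse zinc finger proteins, and the set described here held every protein-coding gene whose symbol is Zfp followed by a number, other than Zfp36, at a mean of 5 CPM or more over all libraries. CPM is the count of a gene per 1000000 counts of its library, with raw library totals for this rule and normalized ones for the levels of single genes. The rule took 223 of 382 named protein-coding Zfp genes, out of 56748 gene IDs in the count tables. The remaining 159 Zfp genes lay below the limit, and 16 of these had 0 counts in every library. Zfp36, an mRNA-binding protein of another zinc finger class, was left out by the rule. The members were chosen by their level, so levels are given as a description without a test.

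RNA-seq was performed on resting bone marrow derived mast cells (BMMCs), which were grown in vitro with IL-3 from the marrow of 4 mice. In the Mettl3-RNP group (4 libraries, genotype labelled Mettl3 KO), the cells were transfected with Cas9 ribonucleoproteins against Mettl3, the catalytic enzyme of mRNA N6-adenosine methylation (m6A). In the Pulsed group (4 libraries), the cells were mock transfected and received no Cas9 ribonucleoprotein. The mice were C57BL/6 animals a few weeks old by the study's methods, no other allele or agent was given, and the Mettl3-RNP cultures were mixed populations from which unedited cells had not been sorted away.

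Most Zfp proteins bind DNA through arrays of C2H2 fingers, short folds in which 2 cysteines and 2 histidines hold a zinc ion. Many also carry a KRAB box, through which they recruit the corepressor Trim28 and the histone H3K9 methyltransferase Setdb1 to silence retroelements. m6A lies preferentially in long internal exons and in last exons near the stop codon, often in the sequence GGACT, and the finger array of a typical Zfp gene is encoded in 1 long last exon. The question here was how the levels of these transcripts compared between Mettl3-RNP and Pulsed cells. Methylation itself was not measured in these libraries.

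The 6 members that passed the test at an adjusted p of 0.05 or less differed in gene structure, and sequences of their last exons are shown to make this visible. In 4 of them the last exon held at least 1 C2H2 finger with the commonest spacing, and the first such finger is given, 5′ to 3′ on the transcript strand (GRCm39), with the codons of the 2 cysteines and 2 histidines in capitals.
Zfp950, chr19:61108707-61108769, minus strand: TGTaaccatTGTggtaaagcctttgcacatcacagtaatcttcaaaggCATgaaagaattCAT
Zfp948, chr17:21807455-21807517, plus strand: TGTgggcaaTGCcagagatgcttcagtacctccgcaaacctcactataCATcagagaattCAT
Zfp507, chr7:35475449-35475511, minus strand: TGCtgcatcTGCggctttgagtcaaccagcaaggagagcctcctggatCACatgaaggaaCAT
Zfp513, chr5:31357145-31357207, minus strand: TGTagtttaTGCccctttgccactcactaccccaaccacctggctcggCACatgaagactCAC

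The GGACT nearest to the stop codon in the last exon is shown next, in capitals, for the 5 genes that had one. It lay in the 3′ UTR in Zfp703, Zfp948, Zfp507 and Zfp513 and in the coding sequence in Zfp710. The last exon of Zfp950 held no GGACT. A match is a description of the letters and not a measured methylation site.
Zfp703, chr8:27470238-27470262, plus strand: ctcccccaccGGACTgtgtatttat
Zfp948, chr17:21809145-21809169, plus strand: gactttattaGGACTaaaaccatgt
Zfp710, chr7:79740134-79740158, plus strand: aggagatggaGGACTtcgaggaaaa
Zfp507, chr7:35474537-35474561, minus strand: tggattagcaGGACTgggcctcatg
Zfp513, chr5:31356469-31356493, minus strand: atagaccaggGGACTtgtcttagct

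Library totals ranged from 32643260 to 45324826 counts. The 10 mast cell identity genes, among them Kit, Fcer1a and Cpa3, summed to between 42016 and 61124 CPM in every library. Of 7 neutrophil markers, 4 were at 0 in all libraries, including S100a8 and S100a9. The 8 macrophage markers summed to 5.35 to 30.3 CPM in Mettl3-RNP and 5.69 to 9.16 CPM in Pulsed libraries, and the 5 basophil markers to 1871 to 2505 and 2350 to 2948 CPM. The 7 erythroid markers, with Hba-a2 at 0, summed to 8.46 to 15.5 and 13.9 to 30.2 CPM, and the 6 lymphocyte markers, with Cd3d at 0, to at most 1.23 CPM. The mast cell, basophil and erythroid sums were each lower in Mettl3-RNP in every pair. The macrophage sum was lower in pair 1 and higher in the other pairs. Fewer cells of a type and less RNA per cell cannot be told apart in bulk libraries, and the part of these differences in the Zfp values was not tested. Both replicate 3 libraries stood apart by their 10 immediate early genes, which summed to 19059 CPM in Mettl3-RNP 3 and 15557 CPM in Pulsed 3. The replicate 4 libraries were the lowest, at 344 CPM in Mettl3-RNP 4 and 175 CPM in Pulsed 4. Those of replicates 1 and 2 lay at 2521 to 5331 CPM. Mettl3-RNP 2 stood apart by its counts on 1547 odorant and vomeronasal receptor genes, at 287 CPM against 48.3 to 167 CPM in the other libraries.

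Mettl3 was examined as a check of the labels. Its levels were 12.3, 9.18, 4.88 and 9.21 CPM in Mettl3-RNP 1 to 4 and 25.9, 24.5, 11.2 and 26.5 CPM in Pulsed 1 to 4. Every Mettl3-RNP library was below the Pulsed library of its number, although Pulsed 3 lay within the range of the Mettl3-RNP group. This was a log2 fold change of −1.30 (SE 0.109, adjusted p = 0.00543, edgeR quasi-likelihood test with Benjamini-Hochberg adjustment). With the signs of the 4 differences permuted, an exact two-sided test gave p = 0.125, the smallest value that 4 pairs allow. Exons on the opposite strand covered 34.1% of the exon length of Mettl3. Reads there cannot be assigned if strand was not used in counting.

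In the test as run here, Zfp transcripts were called at a share no higher than that of other genes. Of 223 members, 5 were higher (Zfp703, Zfp948, Zfp710, Zfp507 and Zfp513) and 1 was lower (Zfp950) in Mettl3-RNP cells at an adjusted p of 0.05 or less, which is 2.69% of the members. Across all 14942 tested genes the share was 3.74%, with 2.35% higher and 1.39% lower, and among the 9053 other protein-coding genes at 5 CPM or more it was 5.04%. With a fold change of at least 1.5 in addition, 2 members passed (Zfp948 and Zfp950), or 0.897%. This stands beside 2.06% of all tested genes and 2.43% of the other protein-coding genes at 5 CPM or more. With these settings the share of members called was no higher than the background by either rule. At an adjusted p of 0.05 or less it was above the background when libraries were scaled by total counts alone (4.48%, beside 3.98%). It was also above when every gene with at least 1 count was tested (4.93%, beside 2.95% of a wider background of 33650 genes). The count of 6 became 14 among genes with 10 or more counts in every library (6.28%, beside 7.67%) and 23 in the DESeq2 Wald test (10.3%, beside 11.7%). Without the replicate block it was 0, as it was over all tested genes (7 members and 579 genes at an unadjusted p under 0.05). Pair 2, which holds Mettl3-RNP 2, bore on these counts, since without it 0 of 223 members and 0.174% of all tested genes passed (40 members and 2236 genes at an unadjusted p under 0.05). Without pair 3, 6 members passed (2.69%, beside 2.57% of all tested genes), and 3 of these were among the 6 called with all pairs. The counts without pairs 1 and 4 were 1 and 3 (beside 2.18% and 2.23%). With the fold change of 1.5, the count of 2 became 1, 0 and 4 without pairs 1, 2 and 3.

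Zfp950, a KRAB zinc finger gene of chromosome 19 with 17 fingers, had the largest decrease of the members. Its levels were 47.8, 25.3, 15.8 and 31.5 CPM in Mettl3-RNP 1 to 4 and 69.9, 50.7, 29.9 and 59.1 CPM in Pulsed 1 to 4. Each Mettl3-RNP library was below its Pulsed partner, while the groups overlapped because Pulsed 3 lay within the Mettl3-RNP range. Its log2 fold change was −0.84 (SE 0.0917, adjusted p = 0.0105, edgeR quasi-likelihood). Its adjusted p was 0.0567 without pair 2.

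Zfp948 is a second KRAB zinc finger gene, on chromosome 17, with 15 fingers, and it moved the other way. Its levels were 16.3, 16.9, 22.1 and 20.1 CPM in Mettl3-RNP 1 to 4 and 9.87, 8.12, 17.5 and 11.3 CPM in Pulsed 1 to 4. Every Mettl3-RNP library was above its partner, and Pulsed 3 was the Pulsed library that reached the range of the Mettl3-RNP group. Zfp948 had a log2 fold change of 0.74 (SE 0.127, adjusted p = 0.0284, edgeR quasi-likelihood), with an adjusted p of 0.0571 without pair 1 and 0.121 without pair 2. The last exons of Zfp950 and Zfp948 were of like length, at 2322 and 2619 bases, and each held the whole finger array.

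Zfp703 encodes a transcriptional corepressor of the NET family, together with its paralogue Zfp503, and had no match to the C2H2 pattern used here. Its levels were 29.2, 26.9, 28.9 and 29.9 CPM in Mettl3-RNP 1 to 4 and 20.3, 18.6, 20.7 and 21.0 CPM in Pulsed 1 to 4. The groups did not overlap, and the log2 difference lay between 0.48 and 0.53 in each of the 4 pairs, the evenest rise among the 6 called genes. The log2 fold change was 0.51 (SE 0.0749, adjusted p = 0.0191, edgeR quasi-likelihood). Leaving out pair 1, 2 or 4 gave adjusted p-values of 0.0808, 0.103 and 0.0574. Zfp503 had a log2 fold change of 0.40 (adjusted p = 0.581), and its levels varied widely between replicate numbers.

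The other 3 higher transcripts changed less. Zfp710, on chromosome 7, was at 57.9, 71.7, 63.7 and 56.2 CPM in Mettl3-RNP 1 to 4 and at 48.8, 50.7, 48.6 and 45.5 CPM in Pulsed 1 to 4, a log2 fold change of 0.36 (SE 0.0714, adjusted p = 0.0374, edgeR quasi-likelihood). Zfp507, also on chromosome 7, was at 70.3, 60.7, 68.9 and 69.6 CPM in Mettl3-RNP 1 to 4 and at 56.2, 49.97, 51.5 and 57.8 CPM in Pulsed 1 to 4, a log2 fold change of 0.32 (SE 0.0659, adjusted p = 0.0413, edgeR quasi-likelihood). Zfp513, on chromosome 5 and linked in humans to retinal degeneration, was at 26.3, 25.6, 27.2 and 24.9 CPM in Mettl3-RNP 1 to 4 and at 22.1, 17.5, 21.4 and 18.5 CPM in Pulsed 1 to 4, a log2 fold change of 0.39 (SE 0.0855, adjusted p = 0.0498, edgeR quasi-likelihood). In all 3 the groups did not overlap, with every Mettl3-RNP library above every Pulsed library. Each of the 3 missed the threshold when any pair was left out, with adjusted p-values from 0.0760 to 0.236. With all pairs, the 3 also missed it when every gene with at least 1 count was tested (0.0745, 0.149 and 0.0774 in the order above), and Zfp710 and Zfp513 missed it with a correction for GC content and length (0.0506 and 0.0593), where their log2 fold changes were 0.33 and 0.36. Exons of a gene on the opposite strand covered 73.9% of the exon length of Zfp513, and reads of such a pair cannot be assigned if strand was not used in counting. The overlap was 27.8% for Zfp710, 18.2% for Zfp703 and 6.24% for Zfp507, and none was found for Zfp948 and Zfp950. Of the exonic 50-base words of Zfp950, 13.1% occurred more than once in the genome, against at most 1.72% in the other called genes. How reads with several matches were counted is not known. Non-overlapping groups were seen in 4 members in the higher direction (Zfp703, Zfp710, Zfp507 and Zfp513), beside 2.03% of all tested genes, and in 0 members in the lower direction, beside 1.2%.

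**Figure D1:**
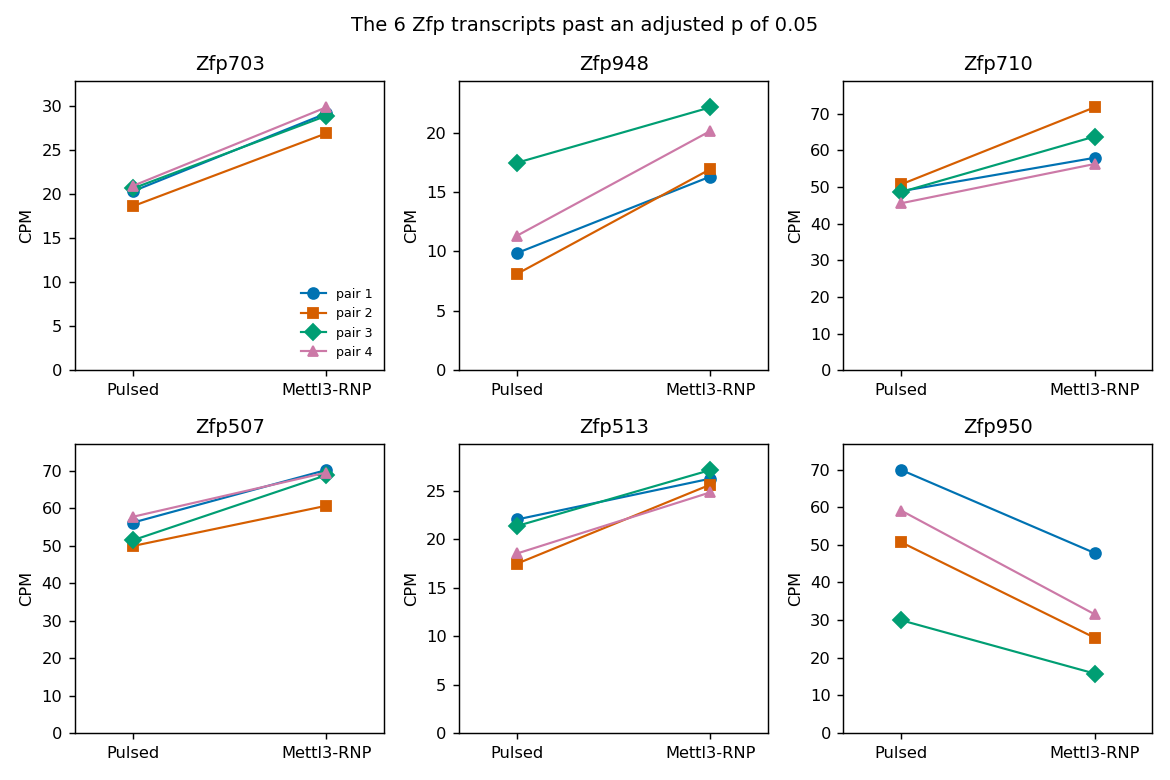
Levels in CPM (linear axis from 0) of the 6 Zfp transcripts with an adjusted p of 0.05 or less, 1 line for each of the 4 pairs from its Pulsed to its Mettl3-RNP library. Zfp703, Zfp948, Zfp710, Zfp507 and Zfp513 rise along all 4 lines and Zfp950 falls along all 4.

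Next to the threshold lay Zfp467, a regulator of the choice between bone and fat cell fates in marrow stroma, with the largest fitted increase of the members. Its levels were 31.4, 32.9, 12.9 and 36.4 CPM in Mettl3-RNP 1 to 4 and 21.8, 13.4, 11.01 and 14.9 CPM in Pulsed 1 to 4. The difference was largest in pairs 2 and 4 and small in pair 3, where both libraries were low. Its log2 fold change was 0.84 (SE 0.185, adjusted p = 0.0517, edgeR quasi-likelihood), and with 1 pair left out it ranged from 0.68 without pair 2 (adjusted p = 0.193) to 1.03 without pair 3 (adjusted p = 0.0327).

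Zfp521, a cofactor of haematopoietic progenitors that antagonises Ebf1, was at 54.2, 33.0, 44.0 and 45.1 CPM in Mettl3-RNP 1 to 4 and at 39.5, 20.4, 22.7 and 41.1 CPM in Pulsed 1 to 4. All 4 pairs had the higher value in Mettl3-RNP, with groups that overlapped and the smallest difference in pair 4. The log2 fold change was 0.56 (SE 0.127, adjusted p = 0.0561, edgeR quasi-likelihood), and with 1 pair left out it ranged from 0.42 without pair 3 (adjusted p = 0.101) to 0.71 without pair 4 (adjusted p = 0.0146). Zfp189 had a log2 fold change of 0.63 (SE 0.159, adjusted p = 0.0690) at 4.18 to 9.58 CPM in Mettl3-RNP and 1.99 to 8.47 CPM in Pulsed libraries. These 3 transcripts were higher in 4 of 4 pairs and did not pass the test as run here. Of the 7 alternatives with all pairs and the block, Zfp467 passed in 6, with adjusted p-values from 2.1e-07 to 0.0488, and missed the threshold with the correction for GC content and length (0.0598). Zfp521 passed in 3 of them and Zfp189 in 2, including the DESeq2 Wald test for both (0.00187 and 0.0204).

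In the lower direction, Zfp420 was at 11.5, 5.44, 1.94 and 7.07 CPM in Mettl3-RNP 1 to 4 and at 14.5, 7.96, 3.78 and 9.48 CPM in Pulsed 1 to 4. Each Mettl3-RNP library was below its partner, and the log2 fold change was −0.54 (SE 0.134, adjusted p = 0.0679, edgeR quasi-likelihood). It passed when every gene with at least 1 count was tested (0.0469) and in the DESeq2 Wald test (0.0342). Zfp983, Zfp932 and Zfp251, the next by size among members lower in 4 of 4 pairs, had log2 fold changes of −0.40, −0.33 and −0.31, with adjusted p-values of 0.107, 0.229 and 0.193. Zfp251 was at −0.18 without pair 2. All 4 encode arrays of at least 10 fingers in the last exon. Within the members, 4 had a fitted fold change of 1.5 or more in either direction (Zfp950, Zfp467, Zfp948 and Zfp189).

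More members were higher than lower in every pair. Of the 223 members, 55 were higher in Mettl3-RNP in 4 of 4 pairs (24.7%, beside 15.7% of all tested genes and 19.2% of the other protein-coding genes at 5 CPM or more). By contrast, 22 members were lower in 4 of 4 pairs (9.87%, beside 16% and 18.8%). The fitted fold change was above 1 in 139 members (62.3%, beside 49.8% of all tested genes). Without pair 2, 71 members were higher and 23 lower in the other 3 pairs (31.8% and 10.3%, beside 19.5% and 20% of all tested genes). Without pair 3 the counts were 70 and 35 (31.4% and 15.7%, beside 21.5% and 23.1%). Members are not replicates of a condition, and no test was made over the list.

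The median log2 fold change of the members was 0.047, with quartiles of −0.06 and 0.20 and a range from −0.84 to 0.84. It was −0.0013 over all tested genes and −0.011 over the other protein-coding genes. Without pair 1 the median of the members was 0.022 (−0.025 over all tested genes), and without pair 2 it was 0.072 (−0.023). Scaling by total counts alone gave 0.080 beside 0.032. With every gene of at least 1 count tested, the members were at 0.062 beside 0.064, where the background was 33650 genes in place of 14942. That background is an unlike set of genes, so its gap cannot be set against the others. In pairs 1 to 4 the median log2 difference of the members was 0.066, 0.0058, 0.091 and 0.13, beside −0.023, 0.0030, −0.026 and 0.020 over all tested genes. Pair 2 was the lowest, near the median of all genes, and pair 4 the highest. An unadjusted p under 0.05 was found in 54 members (24.2%, beside 22.5% of all tested genes and 29.2% of the other protein-coding genes at 5 CPM or more). The median absolute log2 fold change was 0.14 in the members and 0.14 in the other protein-coding genes.

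**Figure D2:**
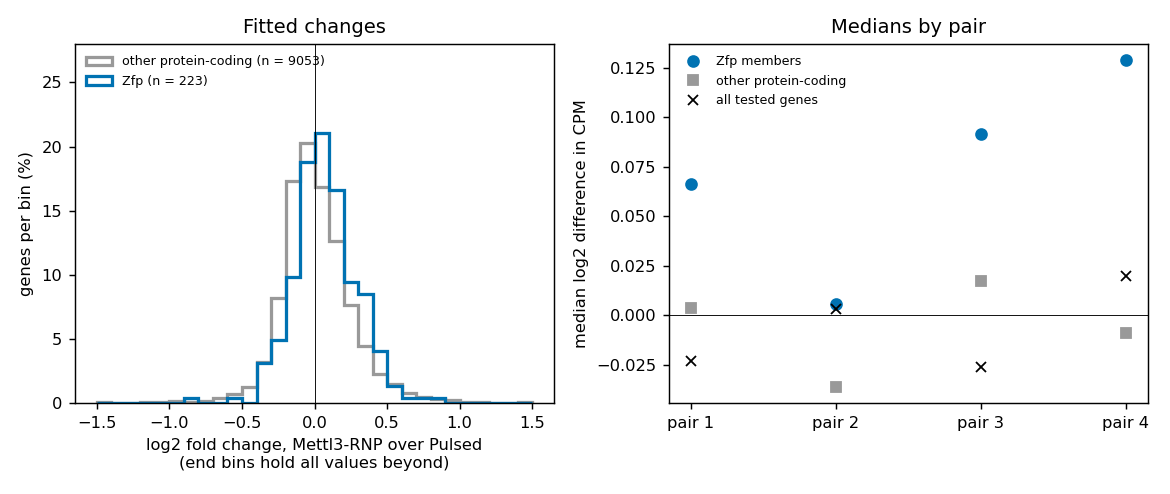
Left, share of genes in % per bin of 0.1 in log2 fold change, Mettl3-RNP over Pulsed, for 223 Zfp genes (blue) and 9053 other protein-coding genes at 5 CPM or more (grey). Right, median log2 difference in each pair, where the Zfp median lies above the median of all tested genes in every pair, by the least in pair 2.

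The summed level of the members was 7911, 6594, 6815 and 7233 CPM in Mettl3-RNP 1 to 4 and 7504, 6644, 6643 and 6692 CPM in Pulsed 1 to 4. Mettl3-RNP was the higher library in pairs 1, 3 and 4 and the lower in pair 2, and the groups overlapped. The ratio had a mean of 1.04 ± 0.0379 (SD, n = 4 pairs). Counts on odorant and vomeronasal receptor genes, taken per kb of exon as a level of reads that do not come from expressed genes, amounted to a median of 1.71% of a member's level in Mettl3-RNP 2 and 0.284% to 1.43% in the other libraries. For the member where it was highest it reached 38.0% in Pulsed 3, 16.9% in Mettl3-RNP 3 and 12.04% in Mettl3-RNP 2. With this level subtracted, the median log2 differences were 0.069, −0.019, 0.10 and 0.13 in pairs 1 to 4, so that pair 2 changed sign.

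The members shared features of structure that the rule did not use. Their last exon had a median of 3296 bases (range 238 to 12927), against 1667 bases in the other protein-coding genes, and was longer than 2000 bases in 169 members (75.8%, against 42.8%). They had a median of 5 exons against 10, and 0.945 exon junctions per kb of transcript against 2.75. Of 2400 C2H2 fingers found in 219 members, 2026 (84.4%) lay in the last exon, and 165 members had every finger there. GGACT occurred in the last exon of 189 members (84.8%, against 74.6%), although per kb of last exon its median was 0.645 against 0.867. The GC content of the exons was also lower, with a median of 44.8% against 50.05%.

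Within the members, the fold change had little relation to last exon length. Spearman's rho between them was −0.078 over the 223 members and 0.12 over the 9053 other genes. For exon junctions per kb it was −0.074 in the members and −0.23 in the others. For GGACT per kb of last exon it was 0.16 and 0.11, and for GC content 0.19 and 0.12. These correlations run across genes measured in the same 8 libraries and are given as a description.

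Grouped by last exon length, the members with the shortest last exons had the highest median. It was 0.083 in the 54 members with less than 2000 bases, of which 17 were higher and 0 lower in 4 of 4 pairs (31.5% and 0%), and 0 passed the test. In the 5179 other genes of this length the median was −0.028, 16.9% were higher and 20.2% lower in 4 of 4 pairs, and 4.77% passed. The medians of the members were 0.030 at 2000 to 3000 bases (n = 47), 0.025 at 3000 to 4500 bases (n = 66) and 0.053 at 4500 bases or more (n = 56). Those of the other genes were 0.0066, 0.019 and 0.023, rising with length where those of the members did not.

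**Figure D3:**
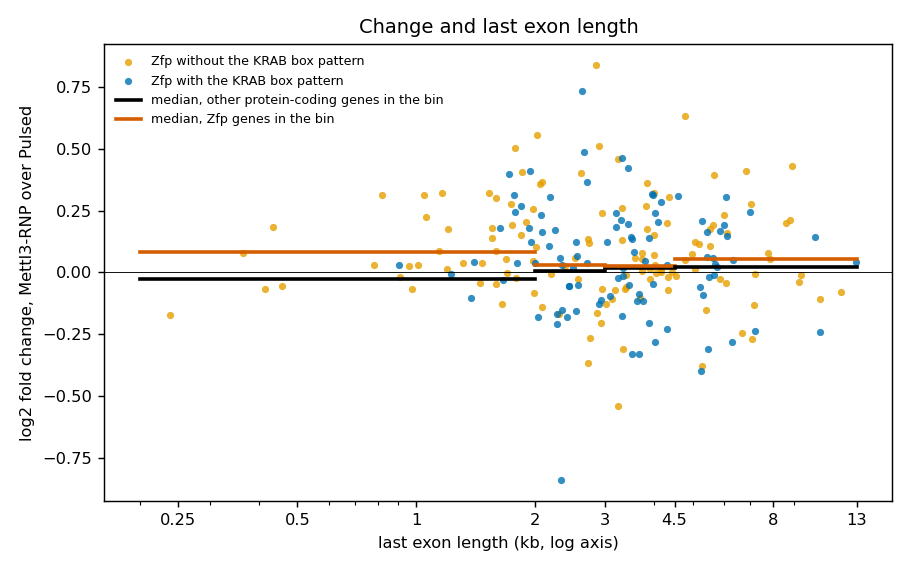
Log2 fold change, Mettl3-RNP over Pulsed, against last exon length in kb (log axis) for the 223 Zfp genes, with (blue) and without (orange) a KRAB box pattern. Horizontal lines mark the medians of Zfp genes (red) and of other protein-coding genes (black) in 4 length bins, which lie farthest apart below 2 kb, at 0.083 and −0.028.

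By finger number, the members with 6 to 10 fingers (n = 66) had a median of 0.12 on the log2 scale, and in 4 of 4 pairs 24 were higher and 4 lower (36.4% and 6.06%, beside 15.7% and 16% of all tested genes). The counts higher and lower were 4 and 0 at 0 to 1 fingers (36.4% and 0%) and 4 and 4 at 2 to 5 (11.8% each). They were 14 and 10 at 11 to 15 (20.3% and 14.5%) and 9 and 4 at 16 or more (20.9% and 9.3%). The medians were 0.027 at 0 to 1 fingers (n = 11), 0.0016 at 2 to 5 (n = 34), 0.022 at 11 to 15 (n = 69) and 0.031 at 16 or more (n = 43). The KRAB box pattern was found in 98 members, with a median of 0.043, and not in 125, with a median of 0.054. Of the 98, 1 was called higher and 1 lower (2.04%), and of the 125, 4 higher and 0 lower (3.2%), both below the 3.74% of all tested genes. The pattern can miss divergent boxes, so its absence does not show that a protein lacks the domain.

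Zfp genes lie in clusters, and 103 members were within 100 kb of another member. Of all 223 members, chromosome 7 held 55, with a median log2 fold change of 0.082. Of these 55, 17 were higher and 3 lower in 4 of 4 pairs (30.9% and 5.45%, beside 15.7% and 16% of all tested genes). For the 31 members of chromosome 17 the median was −0.0091, and 3 were higher and 5 lower (9.68% and 16.1%). The difference between the chromosomes was not tested. Genes of other families with 5 or more fingers (n = 96) had a median of 0.11 and 1 call (1.04%), and those named Zbtb, Zscan or Zkscan (n = 48) a median of 0.12 and 4 calls, all higher (8.33%), beside 3.74% of all tested genes called and 2.35% called higher.

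None of the 5 most abundant members passed the test. Zfp207, a spindle assembly factor that binds Bub3, was at 355, 322, 288 and 368 CPM in Mettl3-RNP 1 to 4 and at 333, 394, 316 and 391 CPM in Pulsed 1 to 4. Its log2 fold change was −0.11 (SE 0.0795, adjusted p = 0.487, edgeR quasi-likelihood), with pair 1 higher and the other pairs lower, and it was −0.21 without pair 1 and −0.051 without pair 2. Zfp106, an RNA-binding protein, was at 309 to 358 CPM in Mettl3-RNP and 286 to 381 CPM in Pulsed libraries, with a log2 fold change of 0.0027 (SE 0.0677, adjusted p = 0.988) whose sign changed with the setting. Per kb of exon, Zfp106 (26.8 CPM per kb) was above Zfp207 (23.5 CPM per kb).

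Zfp871, a KRAB gene with 15 fingers, was at 169, 134, 197 and 119 CPM in Mettl3-RNP 1 to 4 and at 208, 156, 222 and 145 CPM in Pulsed 1 to 4. It was lower in 4 of 4 pairs by a like amount, while the groups overlapped, and its log2 fold change of −0.24 (SE 0.0647, adjusted p = 0.0776, edgeR quasi-likelihood) missed the threshold, which it passed in the DESeq2 Wald test (0.0288). Zfp704 had a log2 fold change of −0.081 (adjusted p = 0.618), which ranged from −0.20 without pair 1 to −0.049 without pair 3, and was −0.054 without pair 2. Zfp91, a ubiquitin ligase of the noncanonical NF-κB pathway, had one of −0.015 (adjusted p = 0.929), whose sign also changed with the setting. At the limit of the rule, Zfp970 (5.07 CPM) and Zfp438 (5.15 CPM) were the lowest members, and Zfp85 (4.98 CPM) and Zfp763 (4.84 CPM) the highest genes left out.

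The spread between replicate numbers was much wider than that between the groups. For a median member, 86.2% of the variance over the 8 libraries lay between replicate numbers and 3.46% between groups (84.3% and 5.41% in the other protein-coding genes). The mean of a pair differed between replicate numbers by a median of 0.76 on the log2 scale, and by 2 or more in 19 members (8.52%, against 4.99% of the other genes). Of these 19, 18 were lowest in replicate 3. Over all members, 120 had their lowest pair mean in replicate 3 (53.8%, against 34.7% of the other genes) and 113 their highest in replicate 1. The replicate 3 libraries were also those with the highest immediate early genes, and the part of this in the Zfp levels was not tested.

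The 5 members that varied most, chosen after their values were seen, illustrate the spread. Zfp60 was at 17.6, 11.3, 1.304 and 16.2 CPM in Mettl3-RNP 1 to 4 and at 15.6, 12.6, 0.746 and 13.97 CPM in Pulsed 1 to 4. Both libraries of replicate 3 were thus far below the rest. Zfp759, Zfp623 and Zfp760 were also lowest in replicate 3, with pair means of 0.999, 1.51 and 1.82 CPM there and at least 5.61, 5.94 and 10.7 CPM elsewhere. Zfp503 went the other way, at 0.700, 6.84, 27.9 and 4.62 CPM in Mettl3-RNP 1 to 4 and 1.55, 3.21, 11.3 and 6.02 CPM in Pulsed 1 to 4, highest in replicate 3 and lowest in replicate 1. None of these 5 passed the test between groups.

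**Figure D4:**
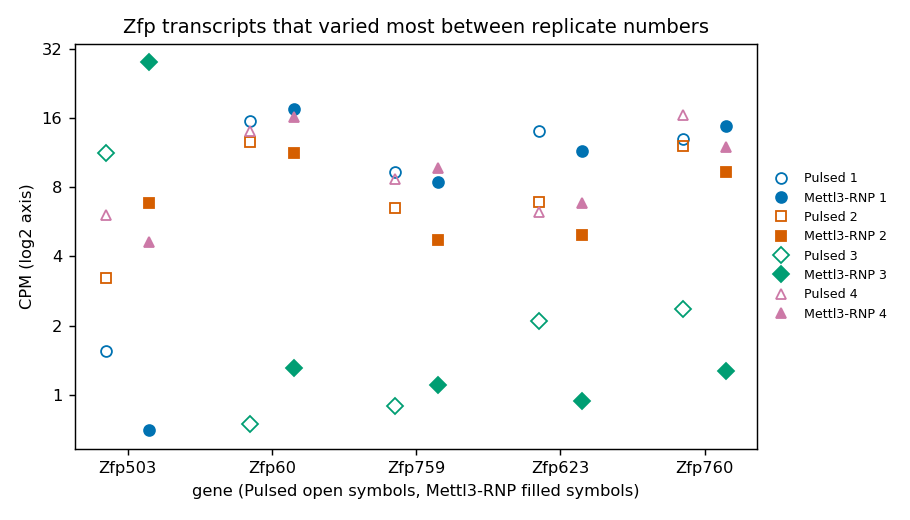
Levels in CPM (log2 axis) of the 5 Zfp transcripts with the widest spread between replicate numbers, in Pulsed (open) and Mettl3-RNP (filled) libraries, with 1 symbol and colour for each number. Replicate 3 (green) is lowest for Zfp60, Zfp759, Zfp623 and Zfp760 and highest for Zfp503.

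Partners of KRAB zinc finger proteins were examined as a list of 13 corepressor genes, of which 1 was called, Setdb1 (7.69%, beside 3.74% of all tested genes). Setdb1 was at 91.7, 76.8, 48.7 and 104 CPM in Mettl3-RNP 1 to 4 and at 56.0, 53.4, 34.1 and 57.8 CPM in Pulsed 1 to 4. It was higher in every pair, and Mettl3-RNP 3 was the library that overlapped the Pulsed range. The log2 fold change was 0.65 (SE 0.0798, adjusted p = 0.0139, edgeR quasi-likelihood), and 0.68 without pair 2 (adjusted p = 0.0588). Trim28, which links KRAB boxes to Setdb1, was at 91.3, 106.6, 109 and 84.8 CPM in Mettl3-RNP 1 to 4 and at 100, 117, 111 and 130 CPM in Pulsed 1 to 4. It was lower in each pair, mostly in pair 4, with a log2 fold change of −0.23 (SE 0.103, adjusted p = 0.245, edgeR quasi-likelihood), which was −0.086 without pair 4. Exons on the opposite strand covered 67.8% of the exon length of Trim28 and 23.5% of that of Setdb1, with the same limit on assigning reads. Cbx5, the heterochromatin protein HP1α, had a log2 fold change of −0.31 (SE 0.0714, adjusted p = 0.0589). The remaining 10 genes, which include Cbx1, Cbx3, Chd3 and Chd4, had log2 fold changes from −0.43 to 0.13 and did not pass.

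**Figure D5:**
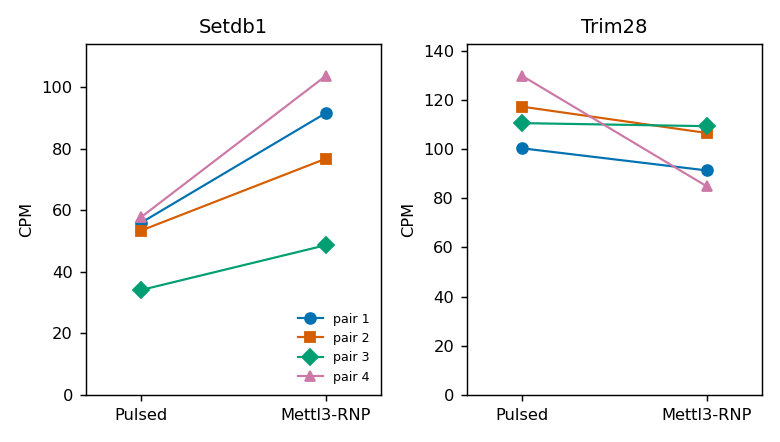
Levels in CPM (linear axis from 0) of Setdb1 and Trim28, 1 line for each of the 4 pairs from its Pulsed to its Mettl3-RNP library. Setdb1 rises along all 4 lines, and Trim28 is lower in Mettl3-RNP in each pair, by the most in pair 4.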

How the data were processed

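Paired-end reads of poly-A RNA were aligned by the authors with HISAT2 2.2.1 to GRCm39 and counted per Ensembl gene with featureCounts 2.0.1 (versions per the submitters' processing notes). The deposited values are raw counts, whole numbers without normalization, and the strand and multimapping settings are not given in the sources used here. The batch correction in the study's methods was not applied.

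GENCODE mouse release 39 (GRCm39) gave the gene names, for 98.7% of IDs, and the transcript structures. Genes kept by filterByExpr (14942, all 223 members among them) were scaled by TMM and tested with the edgeR 4.0.16 quasi-likelihood test in R 4.3.3, blocking on replicate number, with Benjamini-Hochberg adjustment over all tested genes. CPM of single genes and the summed Zfp level used TMM library sizes, and log2 CPM a prior count of 2. Raw library totals were used for membership, CPM per kb, and the sums of marker, immediate early and receptor genes. Alternatives used DESeq2 1.42.0 and limma 3.58.1. The fits were checked on simulated data.

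Pairing by number rests on the series text, which names 4 mice, and on the numbers 1 to 4 in both groups. The labels do not tie a number to a mouse. After subtraction of group means, libraries sharing a number correlated at 0.825, 0.489, 0.879 and 0.765 (11985 genes), against at most 0.183 for different numbers. With the block, p-values rest on how the difference between groups varied from pair to pair in these cultures. They do not rest on the spread between replicate numbers.

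C2H2 fingers (2 to 4 residues between the cysteines, 12 to the first histidine, 3 to 5 between the histidines) and a KRAB box A pattern were searched in translated GENCODE coding sequences, in place of RefSeq proteins as planned. GGACT was searched on the transcript strand.

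The named genes were Mettl3, all called members (adjusted p of 0.05 or less), the 5 largest increases and decreases among members with 1 direction in 4 of 4 pairs, the 5 most abundant, 2 on each side of the limit of 5 CPM, Trim28, Setdb1 and called corepressors. Cbx5 and the most variable members were named after their values were seen. The members and lists were chosen with earlier results of these data known.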

Additional observations from a re-analysis of the deposited data

Results flagged for a closer look

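In 6 of 54 groups of 4 libraries, 1 library lay apart from the other 3 by Dixon's test at 95%, where chance gives about 1 group in 20, or 2.70 groups. Zfp91 was at 218 CPM in Mettl3-RNP 3 against 118 to 129 CPM in the other Mettl3-RNP libraries, and at 195 CPM in Pulsed 3 against 125 to 136 CPM in the other Pulsed libraries, so both libraries of replicate 3 were high. Zfp507 was at 60.7 CPM in Mettl3-RNP 2, below the 68.9 to 70.3 CPM of the other Mettl3-RNP libraries and still above every Pulsed library. The summed Zfp level was 7504 CPM in Pulsed 1 against 6643 to 6692 CPM in the other Pulsed libraries. Mettl3 itself was at 11.2 CPM in Pulsed 3 against 24.5 to 26.5 CPM in the other Pulsed libraries. The receptor genes summed to 287 CPM in Mettl3-RNP 2 against 84.3 to 112 CPM in the other Mettl3-RNP libraries.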

How the results depend on the processing

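Without the replicate block, 0 Zfp members and 0 of all tested genes passed at an adjusted p of 0.05 (7 and 579 at an unadjusted p under 0.05), with and without the fold of 1.5, 0 corepressors passed, and Mettl3 had a log2 fold change of −1.31 (adjusted p = 0.744). The count of members past an adjusted p of 0.05 was 10 with library size alone (4.48%, beside 3.98% of all genes), 11 over every gene with at least 1 count (4.93%, beside 2.95%, or 993 genes, and 3 of the 11 were among the 6 called in the report), 14 at 10 or more counts in every library (959 genes, 2 corepressors) and 23 in the DESeq2 Wald test (1449 genes, 2 corepressors, 20 members higher and 3 lower). It was 5 to 8 in the other alternatives with all pairs, and with GC and length offsets 4 of the 5 were among the 6. With a fold of 1.5 it was 4 over every gene with at least 1 count and 4 with DESeq2. Leaving out 1 pair gave 0 to 6 members, 0 to 4 with a fold of 1.5, 26 to 383 genes in all and 0 to 1 corepressors, the lowest of each without pair 2. Members lower in every remaining pair numbered 23 to 35 and members higher 59 to 71. The median log2 fold change of the members stayed above 0 throughout, from 0.022 to 0.072 with a pair left out, and with library size alone it was 0.080 beside 0.032 over all tested genes. Over every gene with at least 1 count it was 0.062 beside 0.064, with a background of 33650 genes in place of 14942. This larger set differs from the genes tested in the report, so the gaps are not comparable.

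Fold changes near 0 changed sign for Zfp106 (−0.0027 without the block, and −0.031 to 0.031 with a replicate left out, below 0 without replicates 1, 2 and 4), for Zfp91 (0.0081 without the block, 0.018 with library size alone, 0.00053 over every gene with at least 1 count and −0.077 to 0.019 with a replicate left out, above 0 without replicate 4) and for Zfp970 (−0.29 to 0.17 with a replicate left out, above 0 without replicate 3). Why the counts moved was not tested. With 4 pairs, fold changes of the size seen in most members lie within the spread between pairs. Counts of leave-one-out fits also rest on fewer samples.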
